A study of Nasonia vitripennis x Nasonia giraulti with 2 samples.

Results

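The CpGs described here are the most deeply covered positions of a *Nasonia* hybrid methylome. A CpG was taken when its count of all reads was at least 120 in F1VG and at least 120 in F1GV, and 3548 of the 5531492 CpGs listed for both crosses met this. They are called high-depth CpGs below. They were chosen by their total read counts, so their depth is a description and was not tested. They are set against the 3915128 shared CpGs with 30 to 80 reads in both crosses, called usual-depth CpGs.

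The data are whole-genome bisulfite sequencing (WGBS-seq) counts from F1 hybrid females of 2 parasitoid wasp species, *Nasonia vitripennis* (Nv, strain AsymCX) and *Nasonia giraulti* (Ng, strain R16A). F1VG females came from an Nv mother crossed to an Ng father, and F1GV females from the reciprocal cross with an Ng mother. Each cross was 1 library made from the pooled whole bodies of 50 adults taken 24 h after eclosion, so a value is a mean over tissues and animals and has no replicate error. Reads carrying an informative SNP or a *giraulti*-specific indel were assigned to the *vitripennis* allele (V reads) or the *giraulti* allele (G reads), and both species' alleles are present in every female of either cross.

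Bisulfite treatment converts unmethylated cytosine and leaves methylated cytosine unchanged, so the share of unconverted reads at a CpG is its methylation level. In *Nasonia*, as in other Hymenoptera, methylation is sparse and lies mainly in the exons of broadly expressed genes. Read depth reflects how many copies of a sequence the genome holds relative to the assembly the reads are aligned to, how well reads of that sequence are amplified and sequenced, and how many of them map to 1 place. In a hybrid, a sequence with more copies in only one of the parental genomes adds reads of only that allele. The assembly of the files was not used here, so the number of copies of any sequence was not measured, and whether high-depth CpGs lie in repeated or copied sequence was not tested.

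The F1VG file held 286833473 counts over 5804802 CpGs and the F1GV file 371795018 counts over 6527248 CpGs. At shared CpGs the median depth was 48 reads in F1VG and 58 in F1GV, so the minimum of 120 reads was 2.5 times the median in F1VG and 2.07 times the median in F1GV. The limit was the stricter one in F1VG, where 7713 shared CpGs reached it, against 28109 in F1GV. The high-depth CpGs were 46.0% of the first number and 12.6% of the second. Both files list a CpG only where at least 8 V and 8 G reads covered it, so a CpG covered deeply by one allele and hardly at all by the other is not among them.

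Most high-depth CpGs lay just over the limit, and a small number lay far beyond it. By the lower of their 2 depths, 3091 had 120 to 149 reads, 239 had 150 to 199, 121 had 200 to 299 and 97 had at least 300. The median depth was 130 reads in F1VG, with a highest value of 1975, and 135 reads in F1GV, with a highest value of 2386. The 97 deepest CpGs made up 2.73% of the high-depth CpGs and held 10.8% of their reads in F1VG and 11.8% in F1GV. The V share showed no step across the limit itself. The 1394 CpGs with 120 to 124 reads had a median V share of assigned reads of 50.0% in F1VG and 49.6% in F1GV, and the 2649 CpGs with 115 to 119 reads had 49.6% in F1VG and 49.2% in F1GV. Methylated CpGs, which here means a level of at least 20% over all reads of both crosses, were 10 of those just inside the limit (0.717%) and 30 of those just outside it (1.13%).

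**Figure D1:**
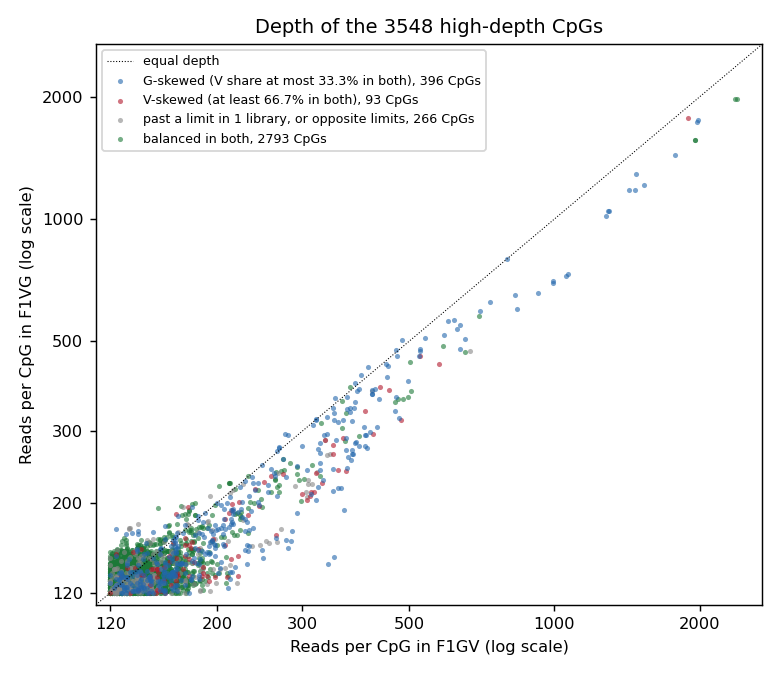
Reads per CpG in F1VG (vertical axis) against F1GV (horizontal axis), both on log scales, for each of the 3548 high-depth CpGs, coloured by their V share of assigned reads in both crosses, with a dotted line at equal depth. Most points crowd above the limit of 120 reads, and most of those beyond 300 reads in both crosses are G-skewed (70 of 97).

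The deepest CpGs were covered mostly by G reads, while high-depth CpGs near the limit were covered evenly by V and G reads. At the 97 CpGs with at least 300 reads, the median was 39 V reads and 318 G reads in F1VG. In F1GV the medians were 43 V reads and 362 G reads. Usual-depth CpGs had medians of 21 V and 20 G reads in F1VG, and 25 V and 24 G reads in F1GV. V reads at the deepest CpGs were thus less than 2 times their usual-depth median in either cross, whereas G reads were far above theirs.

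The V share of assigned reads was lower in each deeper class. Over classes of 120 to 149, 150 to 199, 200 to 299 and at least 300 reads, its median in F1VG was 49.2%, 42.2%, 31.3% and 10.2%. In F1GV the medians were 49.5%, 47.1%, 32.9% and 7.6%. At usual-depth CpGs it was 51.0% in F1VG and 50.6% in F1GV. The 267118 shared CpGs whose lower depth was 80 to 119 reads had medians of 50.0% and 49.5%, so the V share stayed near 50% up to and just past the limit. Since V and G reads are parts of the total that chose these CpGs, this order is a description of the classes and was not tested.

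**Figure D2:**
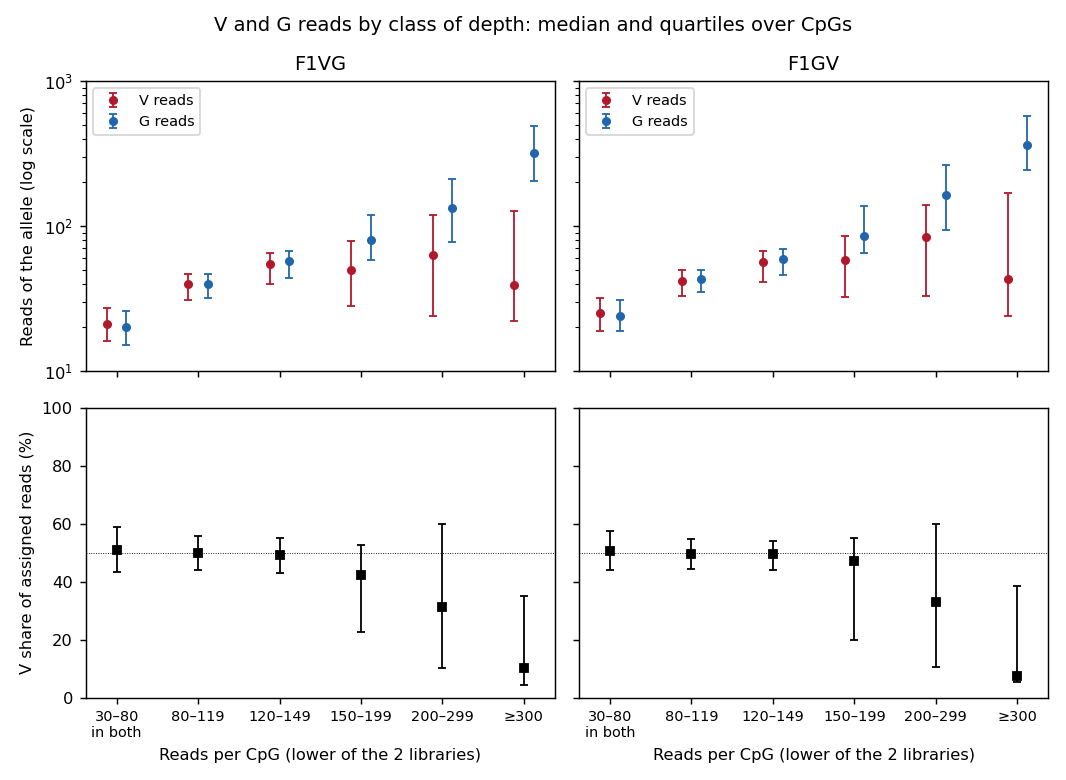
Reads of the V and the G allele (upper panels, log scale) and V share of assigned reads in percent (lower panels) by class of depth, in F1VG on the left and F1GV on the right; points are medians over CpGs and bars run between the quartiles. G reads climb to a median of 318 in F1VG and 362 in F1GV at 300 reads or more, while V reads stay between 39 and 63 in F1VG in the 4 deepest classes.

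Each high-depth CpG was then placed by its V share in both crosses. At 396 CpGs (11.2%) the V share was at most 33.3% in both, and these are called G-skewed; over all shared CpGs this held for 0.701%. At 93 CpGs (2.62%) it was at least 66.7% in both, and these are called V-skewed, against 1.97% of all shared CpGs. A further 2793 CpGs (78.7%) lay between these limits in both crosses and are called balanced, and 266 passed a limit in only one cross or passed opposite ones. Usual-depth CpGs leaned the other way, with 0.737% G-skewed and 2.45% V-skewed. At shared CpGs with 80 to 119 reads the shares were 0.923% G-skewed and 0.365% V-skewed. Where reads are fewer, a V share passes these limits by sampling more often, so the usual-depth shares are not an even comparison.

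The balanced CpGs had high counts on both alleles. Their median was 58 V and 57 G reads in F1VG and 59 V and 59 G reads in F1GV, which is above 2 times the usual-depth medians for each allele. G-skewed CpGs had a median of 25 V and 120.5 G reads in F1VG, and 27 V and 144 G reads in F1GV, so their V reads were close to those of usual-depth CpGs. V-skewed CpGs had a median of 105 V and 31 G reads in F1VG, and 127 V and 36 G reads in F1GV. The greater part of the excess was on 1 allele in the skewed classes, and it was on both in the balanced class. This split follows in large part from the definitions, since the classes were cut by V share among CpGs chosen for total depth. It is a description and was not tested.

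The share of G-skewed CpGs was larger at each higher minimum depth up to 500 reads, and lower again at 1000. It was 47.9% of the 457 CpGs with at least 150 reads in both crosses, 59.2% of 218 with at least 200, 72.2% of 97 with at least 300 and 81.8% of 33 with at least 500. At 15 CpGs with at least 1000 reads it was 66.7%, with 10 G-skewed, 1 V-skewed and 4 balanced. Of the 97, 70 were G-skewed, 7 were V-skewed, 18 were balanced and 2 were past a limit in one cross only. These 97 lay in 47 runs on 46 scaffolds, so no single locus made up the class.

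In a two-sided exact binomial test of V against G reads at each CpG within a library, adjusted by the Benjamini-Hochberg method over all 5531492 shared CpGs, G reads exceeded V reads at 490 high-depth CpGs (13.8%) in F1VG, against 0.658% of all CpGs tested. In F1GV the test called 472 (13.3%) in this direction, against 0.596%. V reads exceeded G reads at 156 high-depth CpGs (4.40%) in F1VG and at 156 in F1GV, against 1.35% and 1.45% of all. In both libraries together, 412 high-depth CpGs (11.6%) were called with fewer V reads, against 0.069% of all, and 111 (3.13%) with more V reads, against 0.313%. Depth sets how small a difference this test can call, and these CpGs are the deepest, and how much of the gap to the background comes with depth was not tested. V and G reads are also parts of the total that chose these CpGs, so an excess on 1 allele helps a CpG enter the set. The gap to the background is therefore a description and no independent support for a skew. The counts by V share given above do not depend on a test.

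The 33 CpGs with at least 500 reads in both crosses lay on 16 scaffolds. Among them 27 were G-skewed, 5 were balanced and 1 was V-skewed. The 27 G-skewed CpGs had between 8 and 126 V reads and between 259 and 1688 G reads in F1VG, and between 8 and 130 V reads and between 345 and 1925 G reads in F1GV. None of the 33 was methylated, with levels between 0.377% and 6.65%.

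The highest depth of all was at a pair of CpGs on SCAFFOLD50, at 607195 and 607228, which stood apart from the G-skewed majority. At 607195 there were 1972 reads in F1VG, 640 of them V and 1167 G, and 2386 reads in F1GV, 813 of them V and 1348 G. At 607228 there were 651 V and 1175 G reads in F1VG, and 827 V and 1329 G reads in F1GV. The V share at 607195 was 35.4% in F1VG and 37.6% in F1GV, just inside the balanced limits. Both alleles were far above their usual-depth medians, with more G than V reads.

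SCAFFOLD203 held the deepest run of at least 4 high-depth CpGs, a run being CpGs on 1 scaffold with at most 1000 bp between neighbours. Its 5 CpGs spanned 136441 to 136538 and averaged 1162 reads in F1VG and 1314 in F1GV. At 136521, for example, there were 46 V and 1688 G reads in F1VG, and 44 V and 1925 G reads in F1GV. The mean V share of the run was 3.16% in F1VG and 2.94% in F1GV. Only 1311 bp further, at 137849, a lone CpG showed the opposite: 1757 V and 18 G reads in F1VG, and 1859 V and 35 G reads in F1GV, a V share of 99.0% and 98.2%. It was the one V-skewed CpG with at least 500 reads.

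A run on SCAFFOLD54 held both kinds of CpG. At 176721, 176742 and 176752 the V reads in F1VG were 75, 8 and 9 and the G reads were 959, 906 and 781, and in F1GV the V reads were 89, 9 and 8 and the G reads 1170, 1142 and 981. At 177252, in the same run, there were 60 V and 22 G reads in F1VG and 76 V and 25 G reads in F1GV. It was the only run of the 1290 with G-skewed and V-skewed CpGs together. Another run named for depth, on SCAFFOLD433 from 1223 to 1274, averaged 576 reads in F1VG and 675 in F1GV over 4 CpGs. All 4 were G-skewed, with a mean V share of 14.0% in F1VG and 11.4% in F1GV.

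On SCAFFOLD1073 a pair of neighbouring CpGs, chosen after their values were seen, differed in V share over a few bases. The CpG at 6293 had 57 V and 678 G reads in F1VG and 93 V and 805 G reads in F1GV. At 6302 there were 442 V and 678 G reads in F1VG and 574 V and 808 G reads in F1GV. The G reads at both positions were nearly equal and the V reads were not. The share of reads assigned to an allele also differed, with 62.2% at 6293 and 71.3% at 6302 in F1VG, and 61.0% and 70.5% in F1GV.

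The excess depth was local. CpGs with at least 120 reads in both crosses are the high-depth ones themselves, so part of the drop beside them follows from that rule. In F1VG the median depth was 130 reads at the high-depth CpGs, 115 at other shared CpGs 1 to 25 bp from the nearest one, 101 at 26 to 50 bp, 77 at 51 to 100 bp, 57 at 101 to 150 bp and 49 at 151 to 200 bp. In F1GV it was 135, 119, 110, 88, 69 and 60 reads over the same distances. From 201 to 5000 bp the medians stayed between 49 and 50 reads in F1VG and between 59 and 61 in F1GV, close to the medians of all shared CpGs. Over all high-depth CpGs depth thus returned to its usual level within 151 to 200 bp, which is less than 2 read lengths. The few CpGs near V-skewed ones had medians of 53.5 reads in F1VG and 69.5 in F1GV at 101 to 150 bp (16 CpGs), but of 82 and 93 at 151 to 200 bp (21 CpGs).

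Around G-skewed CpGs the V reads changed little with distance, while the G reads fell. Their median in F1VG was 120.5 at the CpGs themselves, 67 at 1 to 25 bp, 46.5 at 26 to 50 bp, 36 at 51 to 100 bp, 28 at 101 to 150 bp and 21 at 151 to 200 bp, whereas the V reads stayed between 21 and 25. In F1GV the G reads were 144, 70, 54, 41, 32 and 27 over these distances and the V reads lay between 25 and 31. Around balanced CpGs both alleles changed together, with 58 V and 57 G reads at the CpGs in F1VG and 21 of each at 151 to 200 bp. The classes at 1 to 200 bp from a G-skewed CpG held between 68 and 115 CpGs each, so these medians rest on few positions. The skew at the G-skewed CpGs, and part of the drop beside them, follow from how these CpGs were chosen.

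**Figure D3:**
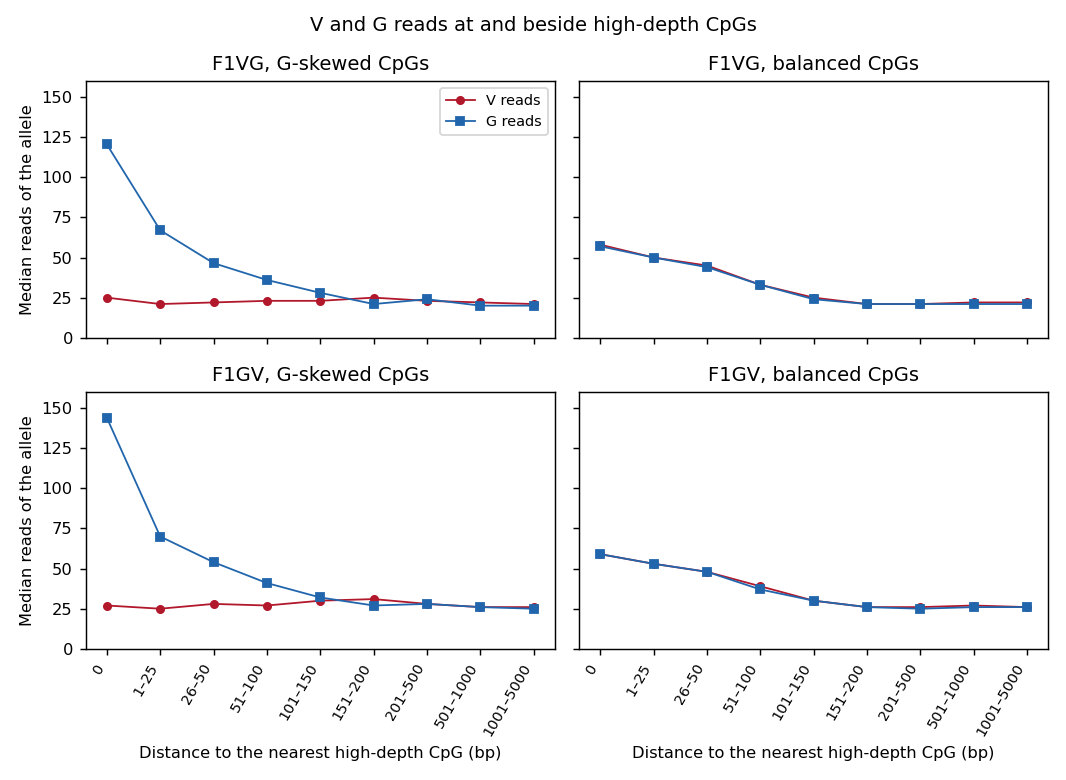
Median V and G reads at high-depth CpGs (distance 0) and at other shared CpGs by distance in bp to the nearest high-depth CpG, for F1VG (upper panels) and F1GV (lower panels), where that nearest CpG is G-skewed (left) or balanced (right). At G-skewed CpGs the G line starts at 120.5 reads in F1VG and 144 in F1GV and meets the flat V line by 101 to 200 bp, while at balanced CpGs both lines run together.

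The 3548 high-depth CpGs fell into 1290 runs on 349 of the 2683 scaffolds with shared CpGs. Of these runs 505 (39.1%) were a single CpG. The 328 runs with at least 4 members held 1963 of the CpGs (55.3%), and their median length was 49 bp. Only 43 runs (3.33%) were longer than 100 bp, about the length of a read, 4 were longer than 1000 bp, and the longest spanned 2045 bp. Members of 1 run can share reads where they lie within a read length, but not across the longer gaps that a run may hold. A run and not a CpG is thus the nearest thing here to an independent locus. Of the 785 runs with at least 2 members, 74 were G-skewed throughout and 16 were V-skewed throughout.

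V shares of the 328 runs were alike in both crosses. The median change between them, taken without its sign, was 5.38 percentage points, and the V share was higher in F1VG in 165 runs and lower in 163. Over all 3548 CpGs the correlation of V share in F1VG and F1GV was r = 0.783 (Spearman's rho = 0.493), against r = 0.283 (rho = 0.241) at usual-depth CpGs. Without the G-skewed and V-skewed CpGs it was r = 0.276 (rho = 0.213). These are descriptions across CpGs that share reads and depth within a library, not tests over independent points. Of the 8 runs with a mean depth of at least 300 reads, 7 had a V share of at most 33.3%.

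**Figure D4:**
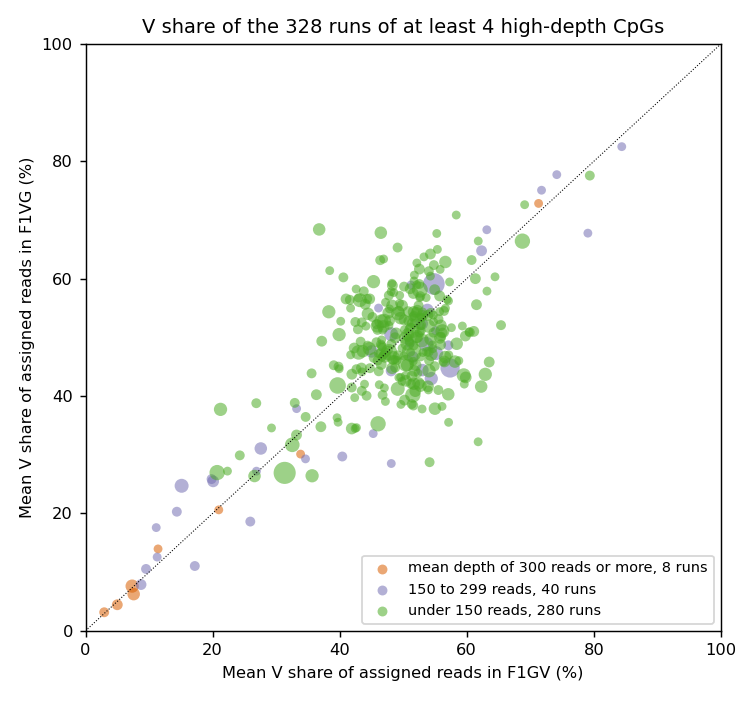
Mean V share of assigned reads in F1VG (vertical axis) against F1GV (horizontal axis), in percent, for the 328 runs of at least 4 high-depth CpGs; the area of a point scales with the number of CpGs and its colour gives the mean depth over both crosses. The 280 runs under 150 reads centre near 50% in both crosses, while 7 of the 8 runs at 300 reads or more lie in the lower left corner.

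The run with the most members, on SCAFFOLD51 from 708112 to 708511, had 25 CpGs with a mean of 147 reads in F1VG and 138 in F1GV. It leaned to the G allele, with a mean V share of 26.9% in F1VG and 31.3% in F1GV, and 11 of its CpGs were G-skewed. The next 4 runs were near balance. On SCAFFOLD16 from 2369821 to 2370345, 24 CpGs had a mean V share of 59.1% in F1VG and 54.8% in F1GV, and from 2378847 to 2380891, 20 CpGs had 47.5% and 51.3%. On SCAFFOLD20 from 1124557 to 1125801, 19 CpGs had a mean V share of 44.8% in F1VG and 57.4% in F1GV. On SCAFFOLD19 from 280879 to 280943, 14 CpGs within 65 bp had 45.6% in F1VG and 50.4% in F1GV, but only 25% and 28.3% of their reads were assigned to an allele. None of the CpGs in these 5 runs was methylated.

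Among runs of at least 4 high-depth CpGs, the lowest V shares were found in deep ones. After SCAFFOLD203 came SCAFFOLD186 from 111246 to 111289, where 6 CpGs averaged 15.7 V and 343 G reads in F1VG and 19.8 V and 382 G reads in F1GV, a V share of 4.4% and 5.0%. On SCAFFOLD583 from 27942 to 28102, 8 CpGs averaged 23.5 V and 407 G reads in F1VG and 28.6 V and 399 G reads in F1GV, a V share of 6.25% and 7.58%. Every CpG of both runs was G-skewed.

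The highest V shares among runs of at least 4 high-depth CpGs were at lower depths than these. SCAFFOLD472 from 26116 to 26140 had 4 CpGs with a mean of 149.8 V and 31.8 G reads in F1VG and 246 V and 45.5 G reads in F1GV, a V share of 82.5% and 84.4%. SCAFFOLD108 from 53374 to 53423 followed with 77.6% in F1VG and 79.4% in F1GV, and SCAFFOLD1664 from 6199 to 6271 with 77.7% and 74.2%. All 13 CpGs of these 3 runs were V-skewed, and none of the runs was longer than 73 bp.

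A change of V share between the crosses was rare. In Fisher's exact test of V and G reads between the libraries, adjusted over all shared CpGs, 4 high-depth CpGs were called (0.113%), against 0.0276% of all, and 0 at an adjusted p under 0.01. By this exact test these were SCAFFOLD178 at 286718, with a V share of 18.1% in F1VG and 46.0% in F1GV (adjusted p = 0.0242), and 9 bp on at 286727, with 17.6% and 44.5% (adjusted p = 0.0237). At SCAFFOLD20 779329 the V share was 28.1% in F1VG and 57.8% in F1GV (exact test, adjusted p = 0.0384). At SCAFFOLD27 1114022 there were 47 V and 19 G reads in F1VG, and 15 V and 35 G reads in F1GV (exact test, adjusted p = 0.0491). With 1 library per cross, this test compares 2 libraries, and the cross cannot be told apart from the library.

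Among runs, 7 of 328 changed by at least 20 percentage points. The largest difference towards F1VG was on SCAFFOLD27 from 1114022 to 1114075, where 8 CpGs averaged 46.0 V and 21.1 G reads in F1VG and 17.9 V and 30.8 G reads in F1GV, a V share of 68.4% and 36.8%. It was followed by SCAFFOLD6 from 3702165 to 3702174 (61.4% in F1VG and 38.4% in F1GV) and SCAFFOLD32 from 611872 to 611933 (67.8% and 46.5%). In the other direction, SCAFFOLD82 from 148895 to 148933 had a V share of 32.2% in F1VG and 61.8% in F1GV. SCAFFOLD6 from 4137666 to 4137697 (28.7% and 54.2%) and SCAFFOLD5 from 76909 to 76947 (35.5% and 57.1%) followed. Only the first of these runs held a CpG called in the test of V share. The CpGs of each run named here lie within a read length and can share reads, so their agreement within a run is not repeated evidence.

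Fewer reads were assigned to an allele at high-depth than at usual-depth CpGs, and this was so just below the limit too. The median assigned share was 93.5% in F1VG and 93.3% in F1GV, against 97.9% and 97.8% at usual-depth CpGs. At 115 to 119 reads it was 94.0% and 93.2%. Under 50% of the reads were assigned in both crosses at 341 high-depth CpGs (9.61%), of which 252 were balanced, 10 were methylated and 1 had at least 300 reads. Within F1VG alone this held for 10.9% of high-depth CpGs, against 2.72% of all shared CpGs and 9.40% at 115 to 119 reads. Within F1GV alone it held for 11.3%, against 2.84% and 8.87%. The deepest class was better assigned than the rest, with a median of 97.3% in F1VG and 97.6% in F1GV.

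High-depth CpGs were spread over the assembly unevenly. Scaffolds numbered above 300 held 361 of them among 216141 shared CpGs, or 16.7 per 10000, and scaffolds numbered 1 to 300 held 3187 among 5315351, or 6.0 per 10000. The allelic pattern differed as well. On the scaffolds numbered above 300, 47.1% of the high-depth CpGs were G-skewed and 14.4% V-skewed, against 7.09% and 1.29% on the others. Depth differed too. These scaffolds held 5.47% of the CpGs with 120 to 149 reads, 35.1% at 150 to 199, 50.4% at 200 to 299 and 48.5% at 300 or more. Depth and scaffold group were not separated. The skewed share over all shared CpGs of these scaffolds is not given here. Of the 97 CpGs with at least 300 reads, 47 lay on scaffolds numbered above 300, which held 3.85% of the usual-depth CpGs. The scaffold number was used as the files give it and was not related to scaffold length.

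SCAFFOLD16 had the most high-depth CpGs (205 in 50 runs), followed by SCAFFOLD6 (175 in 51 runs) and SCAFFOLD19 (134 in 31 runs). Few of these were skewed, with 3, 2 and 5 G-skewed CpGs and no V-skewed one. As a share of the listed CpGs, SCAFFOLD532 led with 12 of 80 (15.0%), all G-skewed and in a single run, with a median V share of 27.2% in F1VG and 20.2% in F1GV. SCAFFOLD901 followed with 3 of 26 (11.5%), all V-skewed, and SCAFFOLD3678 with 5 of 53 (9.43%), all G-skewed.

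The densest window of 50 kb lay on SCAFFOLD16 from 2350000 to 2399999, with 98 high-depth CpGs in 10 runs, 47.8% of those on that scaffold. The median depth over its 2106 shared CpGs, those of the runs included, was 69 reads in F1VG and 81 in F1GV, against 56 and 64.5 in the windows on either side. None of the 98 was skewed, and none of the 2106 CpGs was methylated. The second window, on SCAFFOLD6 from 950000 to 999999, had 50 high-depth CpGs in 8 runs and medians of 63 reads in F1VG and 76 in F1GV, against 54 and 66 on either side. It was unlike the first in its methylation, with 60 of 1185 shared CpGs methylated (5.06%), 3 of them high-depth.

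The share of methylated CpGs at high depth was close to that at usual depth, and its direction against it turned with the way high-depth CpGs were taken. It was 34 of 3548 high-depth CpGs (0.958%, 95% Wilson interval 0.687 to 1.34%) and 0.901% of usual-depth CpGs (0.892 to 0.910%), against 0.972% of all shared CpGs. The interval treats CpGs as independent, which members of 1 run are not, and covers counting error only. When every run counted once the share was 1.49%, and at 2.5 times the median depth of each cross it was 0.601%. By depth the shares were 1.47% at 80 to 119 reads, 1.0% (31 CpGs) at 120 to 149 reads and 1.26% (3 CpGs) at 150 to 199 reads.

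No methylated CpG was found among the deepest or the skewed ones. At 200 to 299 reads it was 0 of 121, which allows a share of up to 2.48%, and at 300 reads or more it was 0 of 97, which allows up to 3.09%. Among G-skewed CpGs it was 0 of 396, which allows up to 0.758%, and among V-skewed CpGs 0 of 93, which allows up to 3.23%. By the Wilson method the upper limit for the G-skewed CpGs was 0.961%, which is above the 0.901% at usual depth, so a lower share among them was not shown. The 396 CpGs lie in only 191 runs and are not independent. The methylated CpGs were 32 balanced ones, or 1.15% of these, and 2 past a limit in one cross only.

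Unconverted reads at CpGs under the 20% level were slightly more frequent at high than at usual depth in both libraries, a difference that was not tested. Summed over such CpGs they were 1.70% in F1VG and 1.79% in F1GV at high depth, and 1.66% and 1.71% at usual depth. At G-skewed CpGs the V reads had 2.62% and the G reads 1.46% unconverted in F1VG, and 2.96% and 1.56% in F1GV. In F1VG, usual-depth CpGs had 1.63% for V and 1.69% for G reads, and in F1GV they had 1.67% for V and 1.76% for G reads. The V reads at G-skewed CpGs are few and come from runs whose members can share reads, and their difference from G reads was not tested.

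The 34 methylated high-depth CpGs lay in 21 runs on 17 scaffolds and were all between 120 and 152 reads in the shallower cross. Their levels ran between 23.7% and 94.2% with a median of 63.6%, against a median of 72.2% at methylated usual-depth CpGs. At least 80% methylation was reached by 8 of them (23.5%), against 39.1% at usual depth. Level in F1VG and in F1GV differed by a median of 6.08 percentage points, against 7.46 at usual depth.

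The alleles were methylated to similar degrees at most of these CpGs. The median of Va minus Ga, the difference in methylation between the V and the G allele, was 1.76 percentage points in F1VG (95% interval of the median -5.41 to 7.21) and -0.66 in F1GV (-6.55 to 9.85). At methylated usual-depth CpGs it was 1.39 in F1VG and 3.27 in F1GV, values that both lie inside those intervals. The intervals treat the 34 CpGs as independent, but they lie in 21 runs whose members can share reads, so the intervals may be too narrow. A difference of at least 20 percentage points was seen at 12 CpGs (35.3%) in F1VG and 9 (26.5%) in F1GV, against 39.5% and 36.6% at usual depth. The sign of Va minus Ga was the same in both crosses at 20 of 34 (58.8%), against 58.4% at usual depth.

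Allele-specific methylation (ASM) was tested with Fisher's exact test of V against G reads within each library, adjusted over the 72225 shared CpGs with at least 10% methylation over the assigned reads of both libraries, of which 49 were high-depth. In F1VG 11 of the 49 were called (22.4%), against 15.4% of all CpGs tested, with V more methylated at 8 (10% of all tested) and G at 3 (5.4%). In F1GV 8 were called (16.3%), against 18.1%, with V more methylated at 7 (13.1%) and G at 1 (4.97%). In both libraries and for the same allele 4 were called (8.16%), against 8.09%. The shares near the background are no result about high-depth CpGs, and that in F1VG is 11 CpGs, some of which share reads.

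The 4 CpGs called in both crosses were on 3 scaffolds. At SCAFFOLD654 3316 Va was 0.00% and Ga 95.2% in F1VG, and Va was 0.00% and Ga 90.9% in F1GV, the only one with the G allele methylated. At SCAFFOLD89 562209 Va was 26.5% and Ga 0.00% in F1VG, and Va was 76.0% and Ga 0.00% in F1GV. On SCAFFOLD6, Va was 78.4% and Ga 1.92% in F1VG at 947341, with 68.8% and 24.0% in F1GV. At 947355 Va was 51.3% and Ga 4.76% in F1VG, and Va was 57.1% and Ga 11.7% in F1GV. Each of these values rests on 28 to 63 reads of an allele.

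**Figure D5:**
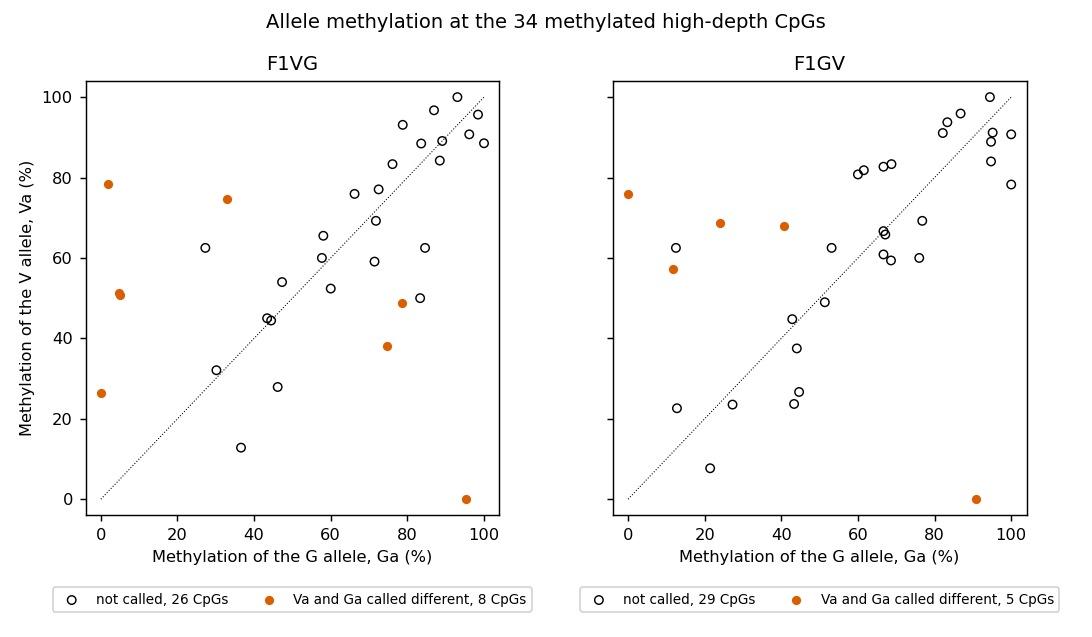
Methylation of the V allele (vertical axis) against the G allele (horizontal axis), in percent, at the 34 methylated high-depth CpGs in F1VG (left) and F1GV (right); filled points passed Fisher's exact test at an adjusted p under 0.05, and the dotted line marks equal methylation. Most points lie near the line, with 8 called in F1VG and 5 in F1GV, and 1 CpG lies at 0.00% V and above 90% G methylation in both.

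Both named methylated runs were short, and only the one on SCAFFOLD6 held CpGs called for an allelic difference. The run on SCAFFOLD6 from 947297 to 947389 had 5 high-depth CpGs, 4 of them methylated. The CpG at 947297, less than 50 bp from the strongly V methylated one at 947341, had a Va of 77.0% and a Ga of 72.5% in F1VG and a Va of 81.8% and a Ga of 61.5% in F1GV. At 947389 Va was 45.0% and Ga 43.4% in F1VG, and Va was 26.7% and Ga 44.6% in F1GV, neither called. The run on SCAFFOLD9 from 3373809 to 3373842 also had 4 methylated of 5 CpGs, at levels between 30.5% and 80.9%, and none of them was called in either cross. A further 3 neighbouring CpGs on SCAFFOLD6, at 962039, 962042 and 962044, were chosen after their values were seen. Their Ga lay above their Va in both crosses, and none of the 3 was called. At 962039, for example, Va was 50.0% and Ga 83.3% in F1VG, and Va was 78.3% and Ga 100% in F1GV. These values rest on 16 V and 24 G of 152 reads in F1VG, and on 23 V and 15 G of 158 reads in F1GV. The 3 CpGs lie a few bases apart and share reads, so their agreement is not repeated evidence.

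An allelic difference that itself changed between the crosses was called at 4 of the 49 CpGs (8.16%) in a likelihood ratio chi-square test for interaction between allele and library, against 4.73% of all CpGs tested. The calls depended on the set tested and on the threshold, with 0 when CpGs of any level entered the test and 2 at an adjusted p under 0.01. At SCAFFOLD6 947341 V was the more methylated allele in both, by less in F1GV (chi-square adjusted p = 0.0283). At SCAFFOLD6 1014320 Va was 74.6% and Ga 32.8% in F1VG, and Va was 49.0% and Ga 51.4% in F1GV (chi-square adjusted p = 0.0154). At SCAFFOLD7 2163481 Va was 0.00% and Ga 10.3% in F1VG, and Va was 38.2% and Ga 0.00% in F1GV (chi-square adjusted p = 9.25e-04). At SCAFFOLD130 57918 Va was 0.00% and Ga 11.4% in F1VG, and Va was 40.7% and Ga 14.5% in F1GV (chi-square adjusted p = 0.00829).

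Total methylation differed between the libraries at 10 of the 49 CpGs (20.4%) in Fisher's exact test, against 9.4% of all tested. Calls with a difference of at least 20 percentage points were 4 of the 49 (8.16%), against 8.34% of the usual-depth CpGs tested. Depth sets how small a difference this test can call, and how much of the gap comes with depth was not tested. With CpGs of any level in the test 5 high-depth CpGs were called, and at an adjusted p under 0.01 there were 6 of the 49. Of the 10 CpGs, methylation was higher in F1VG at 4 (4.4% of all tested) and lower in F1VG at 6 (5% of all tested). By Fisher's exact test the largest differences were on SCAFFOLD4 at 5041880, with 68.0% in F1VG and 36.1% in F1GV (adjusted p = 1.67e-05), on SCAFFOLD89 at 562209, with 12.1% and 36.8% (adjusted p = 2.15e-04), and on SCAFFOLD130 at 57882, with 1.44% and 23.7% (adjusted p = 3.87e-07). On SCAFFOLD130 the CpGs at 57918 and 57940 were called in the same direction, and all 3 lie within 1 read length. These are again differences between 2 libraries.

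CpG density did not set the high-depth CpGs apart at the median. They had a median of 6 other shared CpGs within 50 bp, as had usual-depth CpGs. A CpG with no other within 50 bp was found in 4.23% of high-depth and 1.37% of a sample of 97879 usual-depth CpGs.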

How the data were processed

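WGBS-seq was carried out on 1 library per reciprocal F1 cross. After trimming, the authors mapped single-end reads by BWA to bisulfite-converted Nv and Ng genomes (up to 4 and 6 mismatches) and retained those that mapped uniquely. The species' alleles were told apart by SNPs and G-specific indels; CASAVA 1.8.2, FastQC and Trimmomatic are also named in the submitters' processing notes. For each CpG, the authors deposited raw counts of unconverted and converted reads, not normalized, in total and by allele. A CpG is listed only where each allele had 8 reads or more. Unique mapping lowers the counts of sequence that the assembly holds more than once, and a SNP or indel near a CpG can shift its V share. The study states that reference bias was corrected, and how was not given in the sources used here. Whether the counts of a CpG sum both strands was not tested. At 2 of the 3548 high-depth CpGs, in each library, V and G reads together exceeded the count of all reads, and these were kept. Coordinates are those of the files, on the Nv assembly; no genome, gene annotation or sequence of that build was used here.

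High-depth CpGs, methylated CpGs (pooled level of at least 20%), runs (gaps of at most 1000 bp) and V share classes were derived in pandas 2.3.3 and NumPy 2.4.6 under Python 3.11.15. Tests used Numba 0.67.0 and SciPy 1.17.1, and plots Matplotlib 3.10.9. Two-sided Fisher's exact tests, exact binomial tests and a likelihood ratio test (1 degree of freedom) were run on the whole table and adjusted by the Benjamini-Hochberg method, with calls at an adjusted p under 0.05. Methylation tests used the 72225 shared CpGs with a level of at least 10% over assigned reads, and tests of read numbers used all 5531492 shared CpGs. The tests were checked on simulated data. Wilson intervals (95%) cover counting error only, and order-statistic intervals (95%) reflect the spread over CpGs taken as independent. Reads without molecular identifiers are not independent molecules.

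The runs and scaffolds named were those with the most members, the greatest depth, the most methylated CpGs, the highest and lowest V shares, the largest V share changes, and, for scaffolds, the highest share of members. Single CpGs named beside them are the deepest, those called, and others chosen after their values were seen. The last include the CpGs named on SCAFFOLD1073 and the lone CpG on SCAFFOLD203 at 137849. The rule for the high-depth CpGs, the limits and the lists were chosen with earlier results of these data known. Alternatives were other depth limits, 16 reads per allele, other methylation levels, other thresholds and leaving out single scaffolds or windows. No replicate could be left out.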

Additional observations from a re-analysis of the deposited data

Results flagged for a closer look

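The allelic difference in methylation changed between the libraries at 4 high-depth CpGs, on SCAFFOLD6, SCAFFOLD7 and SCAFFOLD130, by the test of the allele by library interaction; with CpGs of any level in that test the count was 0, and at an adjusted p under 0.01 it was 2. The V share of reads differed between the libraries at 4 high-depth CpGs, on SCAFFOLD20, SCAFFOLD27 and SCAFFOLD178, by Fisher's exact test, with 0 at an adjusted p under 0.01. A further group of deep CpGs enters no comparison, because only one file lists them. At 59 CpGs the F1VG file has at least 120 reads and the F1GV file has no entry, with a median of 127 reads, 12 V reads and 18 G reads. At 642 CpGs the F1GV file has at least 120 reads, up to 618, and the F1VG file has no entry, with a median of 126 reads, 15 V reads and 16 G reads. The median share of their reads assigned to an allele was 25.6% for the F1VG file and 26.1% for the F1GV file.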

How the results depend on the processing

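The size of the class and its V share depended on the depth limit. With at least 150 reads in both crosses there were 457 high-depth CpGs in 218 runs, 0.656% of them methylated, with a median V share of 32.2% in F1VG and 34.0% in F1GV, and at 2.5 times each median depth there were 1164 in 489 runs, 0.601% methylated, with 45.6% and 47.6%. Va minus Ga at the 3 methylated CpGs with at least 150 reads had a median of -22.1 points in F1VG and -10.7 in F1GV, too few CpGs to read. With at least 16 reads per allele the V share in F1VG was 49.1%. The methylated share was 1.49% when every run counted once, and 1.41% or 0.676% at a level of at least 10% or 50%, against 1.11% and 0.642% at usual depth; CpGs with 40 to 60 reads gave 0.727%. Without the level restriction the interaction called 0 and total methylation 5 of the high-depth CpGs. At an adjusted p under 0.01 these were 2 and 6, and the V share test between libraries called 0. Total methylation was called and differed by at least 20 points at 4 (8.16% of the 49), against 8.34% of the usual-depth CpGs tested. Over all settings, 37 values of the main results and 94 of the others moved by less than the limits set for a change, and 25 and 7 moved by more. The count of G-skewed CpGs was 396 in the main setting and 294 with at least 16 reads per allele. It was 316 at 2.5 times each median depth and 219 with at least 150 reads in both crosses. The count of G-skewed CpGs under the alternatives, and the values without the 2 densest windows, were chosen after the data were seen. No paired analysis was possible because each cross has 1 library. Depth limits the deepest class to few CpGs: with 0 of 97 methylated at 300 reads or more, a methylated share of up to about 3.09% remains possible.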
